A study of Mus musculus with 12 samples.

Results

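The genes described here encode the machinery that brings proteins into mitochondria. They are the rows of the deposited RNA table whose symbol begins with Timm or Tomm and a digit, together with Dnajc15, Dnajc19, Pam16, Grpel1 and Hspa9, provided they averaged 10 or more normalized counts across the 6 RNA libraries. This gave 28 genes of the 25700 in the table, of which 18074 reached that mean. Of 29 rows with such a name, the noncoding Tomm6os, at a mean of 2.47, was left out. The rule used gene names and mean level, and no difference between genotypes. The genes were, however, chosen with earlier results of these data known.

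The study concerns NRF2 in mouse Th2 cells, the helper T cells of allergic inflammation, in models of allergic asthma. RNA-seq and ATAC-seq, which marks open chromatin, were each measured in 3 WT libraries and 3 libraries labelled cKO, 12 in all. The sample titles name Th2 cells, and the labels give the cell type as T cell. They do not state the deleted gene or allele, the Cre driver, the strain, the age or the tissue of origin. Nor do they state any culture or treatment of either group. They do not say whether replicates came from separate animals or cultures, so p-values measure the spread between these libraries only.

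Nfe2l2, the gene of NRF2, was at 169.92, 155.3 and 147.37 normalized counts in the WT libraries and at 452.83, 326.42 and 391.53 in the libraries labelled cKO. Its level was thus higher in each library labelled cKO, and which part of which gene was deleted cannot be read from a level per gene. The Y-linked Ddx3y was at 123.38 to 140.49 in WT and is listed at 0 in all 3 cKO-labelled libraries, and Eif2s3y likewise at 116.79 to 126.84 and at 0. Xist was at 3173.64 to 4046.91 in WT and at 4331.33 to 7069.09 in cKO, so Xist was found beside Y-linked transcripts in every WT library. Normalized totals were 6431081 to 7372007 per RNA library. T cell markers (Cd3d, Cd3e, Cd3g, Trac, Cd4) made up 0.12 to 0.127% of the total in WT and 0.124 to 0.144% in cKO. Of the Th2 markers, Gata3 averaged 711.67 and 719.71 and Il13 810.06 and 384.71 in WT and cKO, while Il4 and Il5 averaged 2.23 and 6.25 over all libraries. The 5 Th2 markers together made up 0.02 to 0.025% in WT and 0.016 to 0.017% in cKO. B cell markers reached at most 0.006% and myeloid markers at most 0.007% in any library.

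Nearly all mitochondrial proteins are made in the cytosol and imported. The TOM complex is the entry gate of the outer membrane. From there, small TIM chaperones carry hydrophobic proteins across the space between the membranes, the TIM22 complex inserts carrier proteins into the inner membrane, and the TIM23 complex passes proteins with a cleavable presequence into the matrix, pulled by the PAM motor around the chaperone mtHsp70. Activated T cells enlarge their mitochondria, which depends on this supply.

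Most import genes had lower mean levels in the cKO-labelled libraries, and the ratio of summed levels (cKO over WT) was 0.648 for the small TIM chaperones and 1.019 for the TIM22 complex. Summed over the 28 genes, the level was 28250.7, 28289.3 and 28554.4 normalized counts in WT and 21255.5, 21785.8 and 22410.1 in cKO, a ratio of the means of 0.769. The highest cKO-labelled library was below the lowest WT library. The log2 change (cKO minus WT) was negative for 24 genes and positive for 4, against 45.0% negative among all tested genes. Its median was -0.41, against 0.06 over all tested genes, and it ranged from -1.26 for Dnajc15 to 0.30 for Timm29. As these are bulk samples, fewer cells of a type and less RNA per cell cannot be told apart.

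Only Dnajc15 passed the test across all genes (limma, Benjamini-Hochberg adjusted p below 0.05), so 1 of 28 was called lower and 0 higher. Over all tested genes 0.172% were called lower and 0.0332% higher. At an unadjusted p below 0.05, 13 genes were lower and 0 higher, against 6.05% in each direction. In 16 genes every cKO-labelled library was below every WT library, against 9.76% of all tested genes, and in 0 genes the reverse held, against 7.4%. By the adjusted p of the authors' deposited table, 6 of the genes were lower at 0.05 (Dnajc15, Timm13, Timm8a1, Tomm5, Tomm6 and Tomm7) and 0 higher, against 3.9% and 1.78% of the genes. The shares of import genes lower in cKO were above these backgrounds; the genes share the same 6 libraries and are not replicates of a condition.

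**Figure D1:**
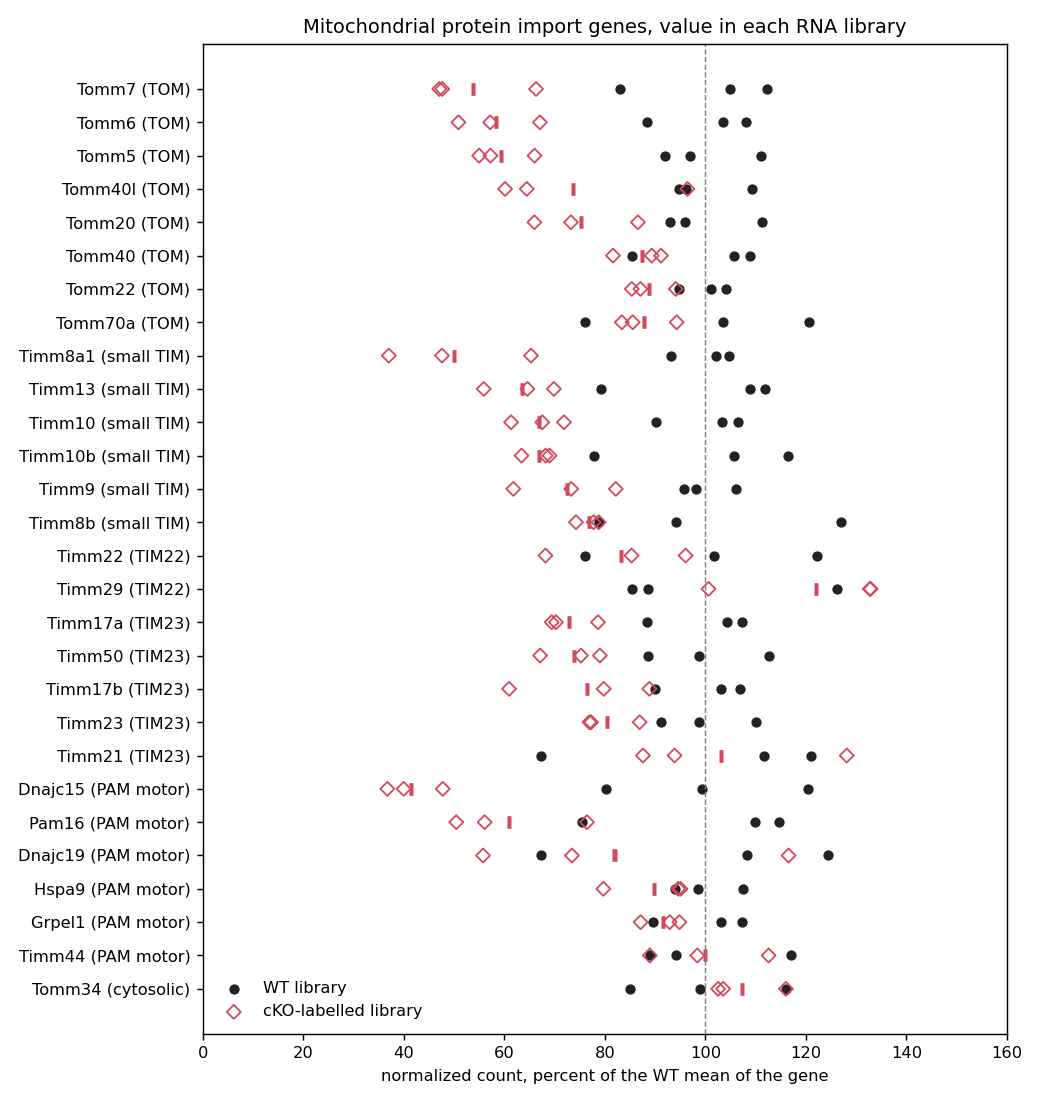
Normalized count of each import gene in each RNA library, as a percent of the WT mean of the gene (dashed line at 100). Black circles are WT libraries, open red diamonds are cKO-labelled libraries and the short red bar is the cKO mean; Dnajc15, Timm8a1 and Tomm7 show wide gaps between groups, while Timm44, Grpel1 and Tomm34 overlap.

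Dnajc15 encodes an inner membrane J-protein of the PAM motor, related to Dnajc19. It lies on chromosome 14 from 77826217 to 77874917 (mm10, 48.7 kb). Its level was 505.8, 759.7 and 625.7 normalized counts in WT and 231.4, 300.9 and 251.8 in cKO. Every cKO-labelled library lay well below the lowest WT library. The means were 630.4 ± 127.0 and 261.4 ± 35.8 (SD, n = 3 each). The log2 change was -1.26 (SE 0.212, 95% interval -1.72 to -0.8), or 2.39-fold lower in cKO, with a limma adjusted p of 0.0438. In the authors' deposited table its log2 change was -1.19 with an adjusted p of 1.35e-05. The limma call was lost without WT replicate 2 (adjusted p 0.128), WT replicate 3 (0.216), cKO replicate 1 (0.258) or cKO replicate 3 (0.198), at log2 changes of -1.25 to -1.11. It was also lost with quantile normalization (0.0544) and without the mean-variance trend (0.446).

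Its paralog Dnajc19 was at 153.4, 283.3 and 246.6 normalized counts in WT and at 127.0, 265.5 and 167.3 in cKO, with overlapping groups and a log2 change of -0.31 (adjusted p 0.74). The ratio of Dnajc15 to Dnajc19 within a library was 3.298, 2.681 and 2.537 in WT and 1.822, 1.133 and 1.506 in cKO. This within-library ratio, which library scaling does not touch, did not overlap between groups. The counts are not per length, so the ratio compares groups and not the levels of the paralogs. The 250 bases before the annotated start of each gene (RefSeq, GRCm38.p6, both on the minus strand, 5′ to 3′) are shown because Dnajc15 was the called gene and Dnajc19 is its paralog. They are at chr14:77874918-77875167 for Dnajc15 and chr3:34081355-34081604 for Dnajc19. Capitals would mark the antioxidant response element core, the NRF1, E-box, ETS and ATF4 motifs described with the chromatin results, and neither window holds any of these; CCAAT and GGGCGG matches are not capitalised.
Dnajc15: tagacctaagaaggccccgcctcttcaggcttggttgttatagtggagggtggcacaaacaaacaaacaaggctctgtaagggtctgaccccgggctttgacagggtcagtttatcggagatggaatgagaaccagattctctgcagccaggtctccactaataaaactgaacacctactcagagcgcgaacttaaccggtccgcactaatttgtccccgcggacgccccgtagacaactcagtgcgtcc
Dnajc19: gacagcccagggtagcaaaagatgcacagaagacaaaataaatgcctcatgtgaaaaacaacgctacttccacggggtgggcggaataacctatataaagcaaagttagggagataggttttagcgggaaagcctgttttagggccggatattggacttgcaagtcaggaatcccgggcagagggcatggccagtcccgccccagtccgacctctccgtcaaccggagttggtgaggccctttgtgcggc

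The other motor genes had no call. Pam16, a J-like regulator of the motor, was at 325.6, 311.6 and 214.2 normalized counts in WT and 143.1, 216.9 and 159.1 in cKO. The highest cKO-labelled value slightly exceeded the lowest WT value, and the log2 change was -0.71 (SE 0.257, adjusted p 0.288). Hspa9, which encodes mtHsp70 itself, was at 5570.7, 4866.0 and 5109.4 in WT and 4902.0, 4129.8 and 4925.4 in cKO. Its groups overlapped, with a log2 change of -0.16 (95% interval -0.44 to 0.13, adjusted p 0.673), which was 0.01 with quantile normalization. Grpel1, its nucleotide exchange factor, was at a log2 change of -0.12 (adjusted p 0.824), and Timm44, which anchors the motor to the channel, 0.00 (95% interval -0.39 to 0.4; -0.02 with quantile normalization). The ratio of Grpel1 to Grpel2, the other exchange factor, was 3.786, 3.686 and 4.655 in WT and 3.045, 2.803 and 2.627 in cKO, without overlap. The motor genes summed to 7956.9, 7457.3 and 7363.0 in WT and 6619.0, 6030.4 and 6827.1 in cKO, a ratio of 0.855.

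All 6 small TIM chaperone genes had groups that did not overlap, each lower in cKO, with a median log2 change of -0.57. Timm8a1, on the X chromosome, whose human counterpart is mutated in deafness-dystonia syndrome, was at 538.1, 605.4 and 589.4 normalized counts in WT and 213.7, 377.2 and 274.8 in cKO. The log2 change was -1.04 (SE 0.225, adjusted p 0.0836). The libraries also differed in Y-linked genes and Xist, as given above. That difference follows the same grouping in every RNA library, so its part cannot be told apart from that of genotype. This holds for every gene compared here, on the X chromosome or not, and was not tested. Timm13, the partner of Timm8 proteins, was at 1623.8, 2292.6 and 2228.1 in WT and 1144.7, 1430.6 and 1322.7 in cKO, with a log2 change of -0.65 (SE 0.171, adjusted p 0.137). In the authors' deposited table Timm8a1 had an adjusted p of 0.00272 and Timm13 of 0.0165. Timm10 (-0.58), Timm10b (-0.56), Timm9 (-0.47) and Timm8b (-0.35) had adjusted p-values of 0.281 to 0.527. For Timm8b the lowest WT and the highest cKO-labelled library were both at 453.6 when rounded, so that separation is within rounding. The ratios of Timm8a1 to Timm8b and of Timm10 to Timm10b overlapped between groups. The chaperone sum was 3643.9, 4921.1 and 4611.7 in WT and 2647.1, 3028.8 and 2861.4 in cKO, a ratio of 0.648, the lowest of the role groups.

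In the TOM complex 5 of 8 genes had groups that did not overlap, each lower in cKO, with a median log2 change of -0.44, and the small subunits Tomm7, Tomm6 and Tomm5 had the largest changes. Tomm7, which modulates assembly of the complex, was at 1385.5, 1875.5 and 1751.9 normalized counts in WT and 796.0, 1107.8 and 786.0 in cKO. The log2 change was -0.90 (SE 0.185, adjusted p 0.0681), and the groups were well separated. Tomm6, another small subunit, was at 1377.2, 1610.9 and 1682.8 in WT and 791.6, 1044.1 and 890.1 in cKO, with a log2 change of -0.78 (SE 0.165, adjusted p 0.0785). Tomm6os overlaps it in the opposite orientation and whether counting used strand is not given in the sources used here. Tomm5 had a log2 change of -0.75 (adjusted p 0.0865). In the authors' deposited table the adjusted p was 0.00104 for Tomm7, 0.00179 for Tomm6 and 0.00218 for Tomm5.

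The presequence receptor gene Tomm20 was at 1924.1, 1986.6 and 2303.0 normalized counts in WT and 1517.0, 1793.0 and 1366.3 in cKO, without overlap, with a log2 change of -0.41 (SE 0.155, adjusted p 0.303). Tomm22, the central receptor, did not overlap either, at a log2 change of -0.17 (adjusted p 0.692). Tomm40, the channel itself, was at -0.19 (95% interval -0.53 to 0.16), its relative Tomm40l at -0.47 and the carrier receptor Tomm70a at -0.16, each with overlapping groups. The complex summed to 10486.8, 10278.1 and 11423.6 in WT and 7375.9, 8298.1 and 7615.1 in cKO, a ratio of 0.724. The cytosolic cochaperone Tomm34 was at 432.1, 371.6 and 506.6 in WT and 452.3, 447.9 and 506.8 in cKO, a log2 change of 0.11 (95% interval -0.3 to 0.53).

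**Figure D2:**
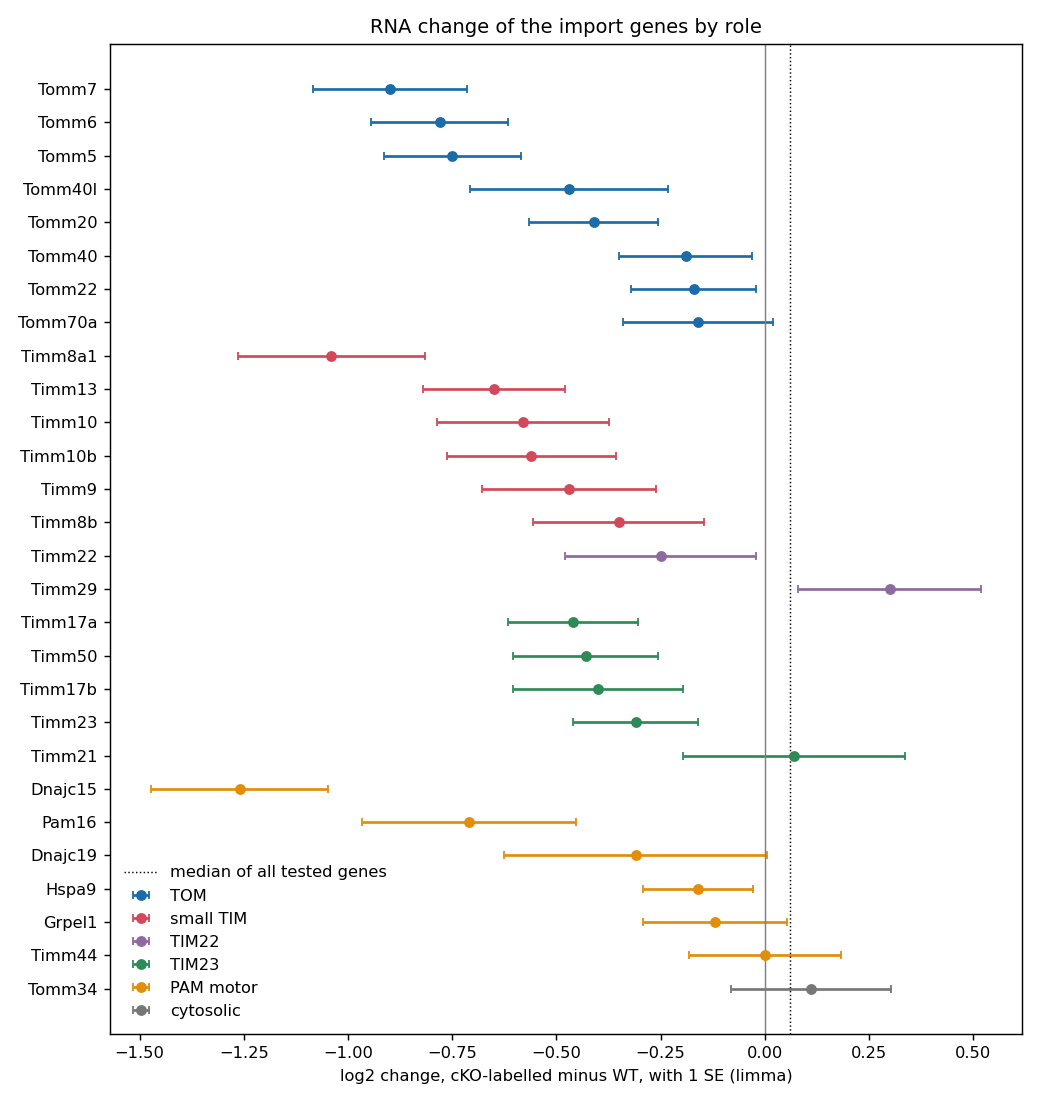
Log2 change in RNA (cKO minus WT) of each import gene, coloured by role, with bars of 1 SE from limma; the dotted line is the median of all tested genes, 0.06. All small TIM genes lie below 0, the TIM22 genes lie on either side of it, and Dnajc15 is lowest at -1.26.

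Of the 5 TIM23 genes 4 had groups that did not overlap, each lower in cKO, with a median log2 change of -0.40 and no call. Timm17a, a channel subunit, was at 1349.9, 1312.9 and 1112.2 normalized counts in WT and 884.1, 873.3 and 989.4 in cKO, a log2 change of -0.46 (SE 0.157, adjusted p 0.26). Timm50, the receptor that takes presequences from the TOM complex, was at 808.1, 922.6 and 726.1 in WT and 616.1, 549.6 and 647.0 in cKO, at -0.43 (SE 0.173, adjusted p 0.332). Timm23, the channel-associated subunit, was at 1777.6, 1595.4 and 1473.3 in WT and 1242.6, 1248.0 and 1404.0 in cKO, at -0.31 (adjusted p 0.428). For these genes, and for the X-linked Timm17b (-0.40, adjusted p 0.461), every cKO-labelled library lay below every WT library. Timm21, which links the complex to the respiratory chain, overlapped, at 0.07. The ratio of Timm17a to Timm17b overlapped between groups. The sum over the TIM23 genes was 4780.4, 4632.9 and 3931.2 in WT and 3290.3, 3338.8 and 3770.7 in cKO.

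The 2 TIM22 genes had log2 changes of opposite sign. Timm22, the carrier channel, was at 484.9, 301.7 and 403.2 normalized counts in WT and 381.0, 270.4 and 338.3 in cKO, a log2 change of -0.25 (95% interval -0.75 to 0.25, adjusted p 0.704). Timm29, another subunit of that complex, was at 465.6, 326.6 and 315.2 in WT and 489.9, 371.4 and 490.5 in cKO, at 0.30 (95% interval -0.17 to 0.77, adjusted p 0.623). Their sum overlapped between groups, at a ratio of 1.019. The RefSeq gene table lists pseudogene copies of Hspa9, Dnajc19 and Timm29, which could share reads with them, so their values are uncertain to that extent.

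Cytosolic ribosomal protein genes made up 9.274, 11.512 and 10.596% of the normalized total in WT and 8.05, 9.611 and 7.87% in cKO. Mitochondrially encoded genes made up 2.475, 3.352 and 2.147% in WT and 3.955, 2.906 and 4.473% in cKO. Both shares overlapped between groups, and their part in the members' levels was not tested. Genes ordered by genomic span and cut into 5 equal bins had a median log2 change of -0.03 in the shortest bin and 0.15 in the longest. The import genes are short, with a median span of 8.7 kb against 20.1 kb. With the span trend removed, their median was -0.36, and Dnajc15 and Tomm6 were called lower. Of all 15845 tested genes with a span, 78 were then called lower and 11 higher. The 14 shorter members had a median of -0.52 and the 14 longer -0.28.

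**Figure D3:**
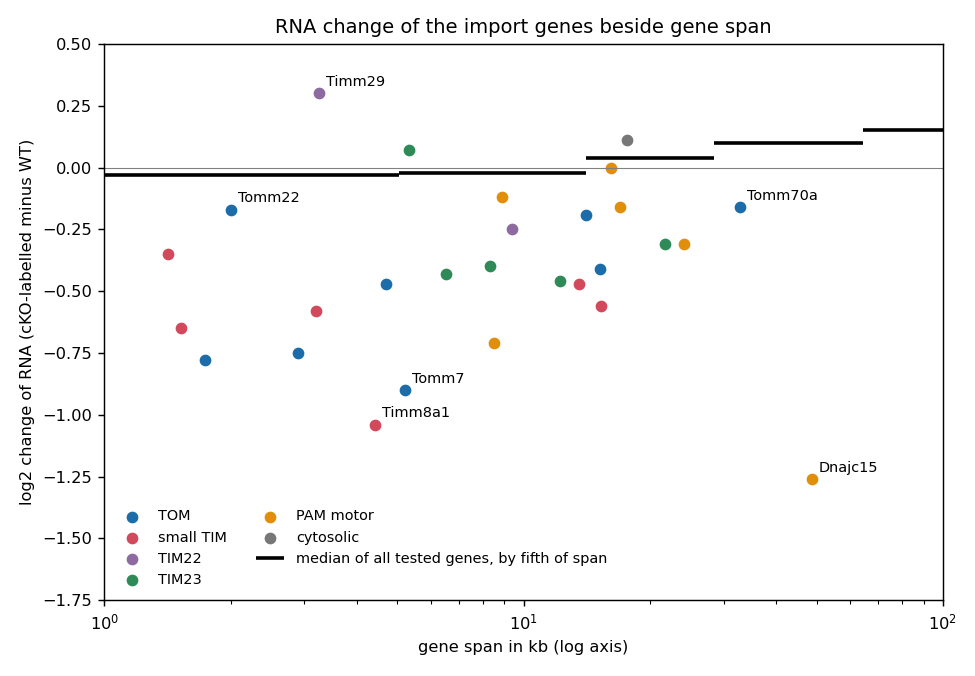
Log2 change in RNA (cKO minus WT) of each import gene against the span of the gene in kb (log axis), coloured by role. Black bars give the median of all tested genes in 5 bins of span, from -0.03 to 0.15; Timm29, Timm21 and Tomm34 lie above the bar of their bin and the other genes below it.

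Other genes of the import pathway were described from 9 lists, 77 tested genes in all. With limma 0 of 77 were called in either direction, while 19 were lower and 3 higher at an unadjusted p below 0.05, against 6.05% of all tested genes in each direction. By the adjusted p of the authors' deposited table, 10 of 73 were lower and 1 higher, against 3.9% and 1.78%. Their median was -0.19. The lowest median of the 9 lists was that of the substrates of the MIA disulfide relay, small twin CX9C proteins of the intermembrane space, at -0.52. Of these 19 genes 17 had a negative log2 change, against 45.0% of all tested genes, and in 12 every cKO-labelled library was below every WT library, against 9.76%. Of these, Cox6b1, a subunit of cytochrome c oxidase, had means of 2107.6 ± 167.6 and 1113.5 ± 344.3 (SD, n = 3), a log2 change of -0.96 and an adjusted p of 0.0681 by limma. Cox17, a copper chaperone for that enzyme, was at -0.95 (adjusted p 0.0834), and Uqcrh, of complex III, at -0.67 (adjusted p 0.101). The relay itself was at -0.37 for Chchd4, -0.39 for Gfer and -0.09 for Aifm1, with adjusted p-values of 0.405, 0.417 and 0.909.

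The remaining lists had medians between -0.24 and 0.27. Of 12 genes for folding and proteolysis inside mitochondria, in the matrix and outside it, 3 were lower at an unadjusted p below 0.05, with a median of -0.04. The chaperonin cofactor Hspe1 was at -0.60 (adjusted p 0.0882; 0.00477 in the authors' deposited table) and its partner Hspd1 at -0.42 (adjusted p 0.187). Of 8 genes of the MICOS complex, which shapes cristae, 7 were negative, with a median of -0.24, and Micos10 was at -0.70 (adjusted p 0.123). Of 7 presequence and precursor peptidases the median was -0.14, and the subunits of the main peptidase went opposite ways, Pmpcb at -0.51 (adjusted p 0.306) and Pmpca at 0.41 (adjusted p 0.379). All 6 genes for outer membrane sorting had negative log2 changes, but 0 of 6 passed at an unadjusted p below 0.05. Mtch2 was at -0.38 (adjusted p 0.418), Mtx3 at -0.28 and Mtx2 at -0.19. A list of 6 inner membrane and motor partners outside the 28 genes had a median of -0.16. There, Romo1 was at -0.79 with overlapping groups (adjusted p 0.213, and 0.0445 in the authors' deposited table). Grpel2 was at 0.39 (adjusted p 0.582) and Agk at -0.31 (adjusted p 0.592). Among 10 cytosolic delivery chaperones, Hsp90aa1 was at -0.63 (adjusted p 0.0681) and Hspa8 at 0.41 (adjusted p 0.377). The quality control list had a positive median of 0.27, led by Pink1, a kinase that accumulates on mitochondria when import fails, at 0.71 (adjusted p 0.183).

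**Figure D4:**
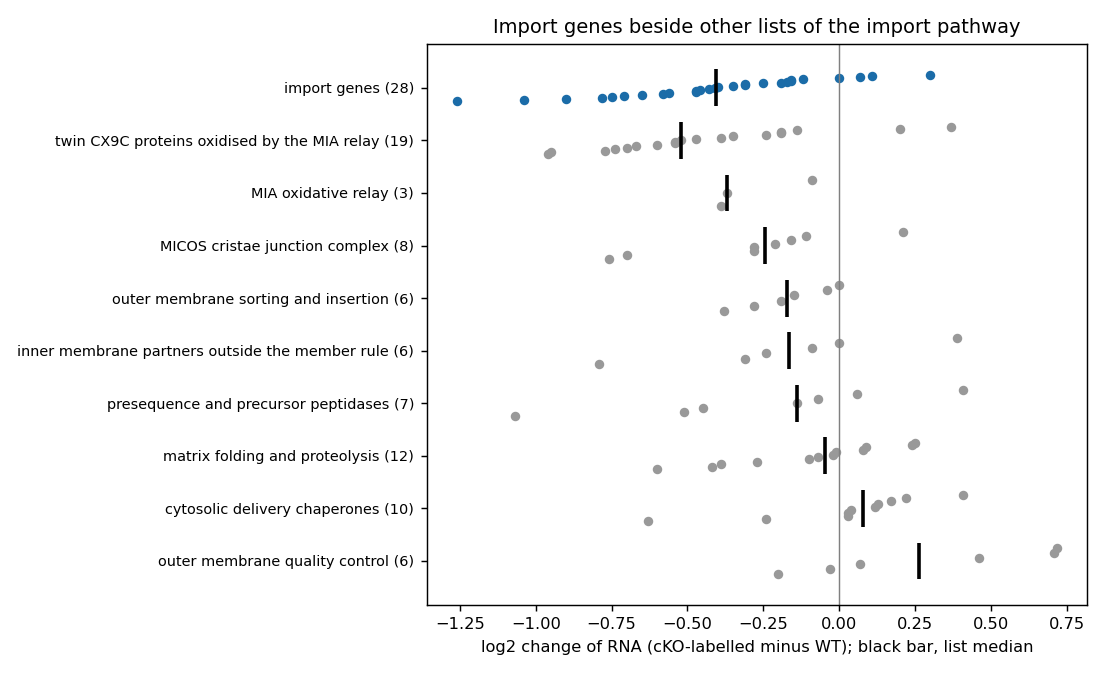
Log2 change in RNA (cKO minus WT) of the 28 import genes (blue) and of the genes in the 9 pathway lists (grey), 1 point per gene, with the number tested beside each name and the list median as a black bar. The twin CX9C list has its median at -0.52 and the quality control list at 0.27.

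In ATAC-seq, every one of the 28 genes had a region open in all 6 libraries within 1 kb of its start (for Tomm7, Tomm40l, Timm21 and Hspa9, of either gene end), and 11 of these regions also held the start of another gene. Region height was the tag count of the highest peak, scaled to 10000000 tags per library. After quantile normalization 0 of the 28 regions were lower in cKO and 1 higher at an adjusted p below 0.05, against 2.84% and 5.92% of the 10585 regions at gene starts. Over all regions tested the shares were 4.33% and 3.67%. The log2 change was positive at 25 regions and negative at 3, with a median of 0.19 against 0.12 at gene starts. In 10 regions every cKO-labelled library was above every WT library (29.3% of gene-start regions), and in 1, at Tomm70a, the reverse held (8.36%), at a log2 change of -0.17 that was 0.39 with each library's median subtracted. The shares of called and of separated regions were thus near those of gene-start regions in general. With each library's median subtracted in place of quantile normalization, 24 were called higher, against 59.2% of gene-start regions.

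The called region was that of Timm10, on chromosome 2 from 84826487 to 84828004, with heights of 61.9, 49.7 and 57.4 in WT and 78.6, 80.7 and 97.0 in cKO. The groups did not overlap, and the log2 change was 0.63 (SE 0.140, adjusted p 0.0257), while its RNA had a log2 change of -0.58. The call was lost without WT replicate 1 (adjusted p 0.0519) and without cKO replicate 1 (0.0753), 2 (0.0712) or 3 (0.118), at log2 changes of 0.52 to 0.66. It was also lost with no further scaling (0.0887) and with tags per kb of peak (0.0572). The Dnajc15 region, on chromosome 14 from 77874155 to 77875304, had heights of 31.3, 30.3 and 20.7 in WT and 30.4, 26.2 and 33.5 in cKO. These heights, like the others given here, are before quantile normalization. After it the Dnajc15 region overlapped between groups, with a log2 change of 0.47 (adjusted p 0.259). The log2 change was 0.14 with no further scaling and 0.15 with tags per kb of peak. It was 0.45 with library medians subtracted, 0.5 with cyclic loess scaling and 0.47 with summed tags. The Tomm7 region had heights of 64.2, 45.3 and 49.9 in WT and 71.7, 83.5 and 61.6 in cKO. Its log2 change was 0.53 after quantile normalization (adjusted p 0.0544) and 0.44 with no further scaling. RNA and ATAC came from separate libraries, so no sample carries both.

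**Figure D5:**
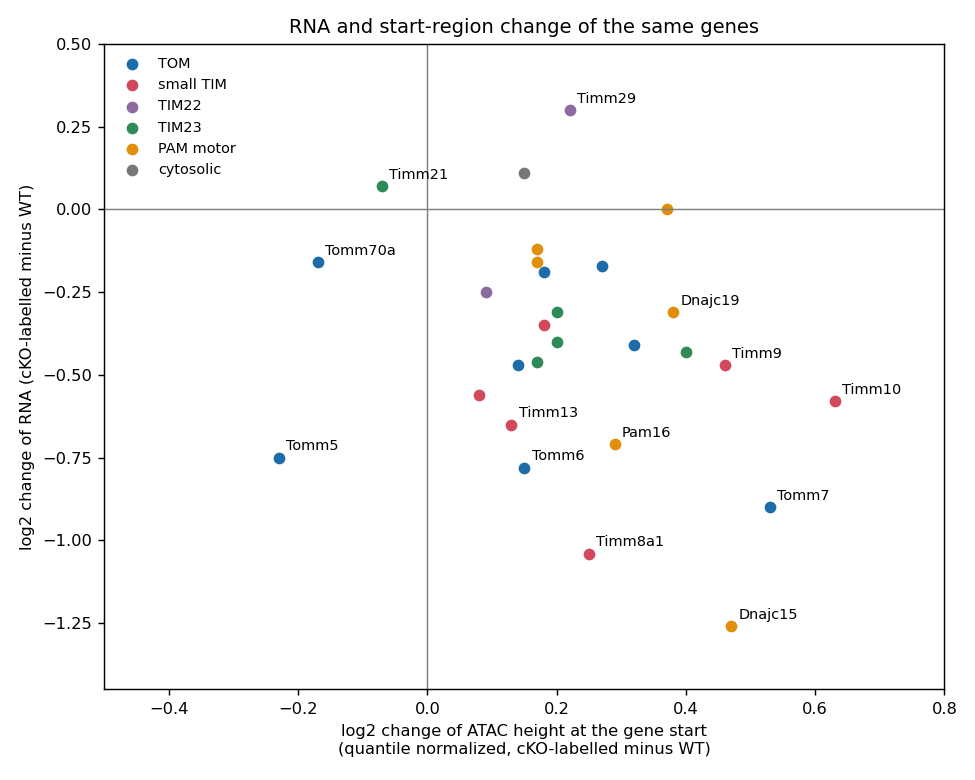
Log2 change in RNA (vertical) against log2 change in quantile normalized height of the open region at the gene start (horizontal), both cKO minus WT, 1 point per import gene coloured by role. Of the 28 points 25 lie right of 0 in height and most lie below 0 in RNA; Timm10, farthest right at 0.63, is the called region, and Dnajc15, lowest at -1.26, is the called gene.

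Promoter windows of 250 bases before the start were at hand for 24 of the 28 genes and searched on both strands; a match describes letters and not a bound site. TGACNNNGC, the core of the antioxidant response element that NRF2 binds, was found in 1 of 24 (4.2%, Tomm20), against 11.6% of 11791 tested genes. The ETS motif CCGGAAG was found in 8 (33.3%), against 12.6%, among them Timm10 and Tomm22. The E-box CACGTG was found in 3 (12.5%) against 7.9%, and TGATGNAA, an ATF4 motif, in 0 against 2.3%. CCAAT was found in 33.3% against 36.2% and GGGCGG in 54.2% of both. The palindromic motif of nuclear respiratory factor NRF1 was in 0 of 24 against 1.5%. Median GC content was 56.4% against 58.8%. The windows of Timm10, the called open region, and of Tomm20, picked after its match to the response element was seen, follow (RefSeq, GRCm38.p6), at chr2:84826771-84827020 on the plus strand and chr8:126945922-126946171 on the minus strand. Capitals mark the ETS match in Timm10 and, in Tomm20, the response element core followed by the E-box; the core overlaps the letters TGACTCA of an AP-1 site.
Timm10: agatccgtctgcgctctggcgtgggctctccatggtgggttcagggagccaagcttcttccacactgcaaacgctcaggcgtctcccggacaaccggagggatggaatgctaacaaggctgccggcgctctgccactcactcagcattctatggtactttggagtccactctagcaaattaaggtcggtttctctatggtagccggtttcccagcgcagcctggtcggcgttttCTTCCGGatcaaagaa
Tomm20: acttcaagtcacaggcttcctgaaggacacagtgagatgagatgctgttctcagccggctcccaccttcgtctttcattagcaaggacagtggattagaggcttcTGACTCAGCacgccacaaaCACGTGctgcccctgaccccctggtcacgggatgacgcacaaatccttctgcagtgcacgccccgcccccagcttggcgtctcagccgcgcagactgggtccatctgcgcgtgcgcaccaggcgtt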

How the data were processed

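Labels gave the groups. For RNA the unit deposited is a signal: gene counts that the authors normalized. Only 0.18% of the values above 0 are whole at a tolerance of 0.001; reads could therefore not be rebuilt, and how deep the libraries were is not known. The authors' log2 fold change, p-value and adjusted p-value are theirs and were copied as deposited. ATAC: the deposited HOMER peak lists, 1 per library, give per the file headers a tag signal scaled to 10000000 tags, a peak score, and a fold ratio; 13149952 to 18327127 tags per library. Peaks passed a Poisson p-value of 0.001. The share of tags in peaks was about 25.22% in WT replicate 2 and 34.87 to 38.28% in the other libraries. The submitters' processing notes name the build mm10 and, without roles, HOMER 4.11, Bowtie2 2.3.5.1, STAR, RSEM 1.3.3, edgeR and DESeq2.

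Values were put on the log2 scale after adding 1, and the 18074 genes averaging 10 or more were fitted in R 4.3.3 by limma 3.58.1, whose eBayes step used a mean-variance trend, with Benjamini-Hochberg adjustment over those genes at 0.05; the added 1 understates changes of low genes. Peaks sharing at least 1 bp were merged (pandas 2.3.3, numpy 2.4.6, Python 3.11.15); 33531 of 114463 regions were in all 6 lists, and their height was quantile normalized and fitted likewise. Starts came from the RefSeq GRCm38.p6 promoter table (24 of 28 genes) or else both gene ends. Figures used matplotlib 3.10.9. Scripts were tested on simulated data. With normal noise, the RNA fit called 20 of 100 genes changed by a log2 of 1 and 51 of 100 changed by 2. For ATAC height the counts were 36 of 100 and 82 of 100. A gene without a call may therefore still have changed.

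The genes and lists were chosen with earlier results of these data known. All 28 genes are described; given in full are called genes and, per role, the 2 with the smallest p and the one with the highest mean; per pathway list, up to 3 with the smallest p. Genes of lists named outside this rule were picked after their values were seen. Alternatives were other pseudocounts, minimum means, scalings, variance models, weights, peak settings, the replicate number as a block, and each library left out. The labels do not say that replicate numbers pair the libraries.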

Additional observations from a re-analysis of the deposited data

How the results depend on the processing

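The median log2 change of the import genes was -0.36 to -0.42 in every limma alternative and -0.21 in the authors' deposited table, and 24 to 26 of the 28 genes were negative. The median over all tested genes stayed within 0.01 to 0.07. The count of import genes called lower, 1 here, was 0 with quantile normalization, 0 without the mean-variance trend, 10 with sample quality weights (cKO replicate 1 had a weight of 7.43), 2 with the span trend removed, 6 with the authors' adjusted p, and 0 to 4 with each library left out: 2 without WT replicate 1, 4 without cKO replicate 2, 0 without each other one. Called higher stayed at 0 throughout. Calls over all 18074 tested genes moved too, from 31 lower and 6 higher here to 840 and 943 with weights. With the replicate number as a block they were 92 and 30, and with the span trend removed 78 and 11 of 15845 genes. They were 94 and 56 without cKO replicate 2, and 63 and 21 without WT replicate 1. Of the pathway genes, 0 called lower here, 21 were with quality weights, 10 with the authors' adjusted p, and 0 to 3 with each library left out (1 without WT replicate 1, 3 without cKO replicate 2); higher calls were 4 with weights and 1 with the authors' p. With the replicate number as a block, 4 import genes and 2 pathway genes were called lower. Whether the numbers pair the libraries cannot be read from correlations in groups of 3. Same-number correlations of deviations were 0.12, 0.21 and -0.06 in RNA and -0.02, -0.01 and 0.00 in ATAC. Those between different numbers ranged from -0.27 to 0.22 in RNA and from -0.02 to 0.02 in ATAC.

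ATAC calls of higher regions, 1 here, were 24 with library medians subtracted, 0 with no further scaling, 4 with summed tags, 0 with tags per kb of peak, and 0 to 1 with each library left out; the cause was not tested.

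The sign of some uncalled changes turned. In RNA, Hspa9 was 0.01 with quantile normalization, and Timm44 was -0.01 with trimmed mean rescaling and -0.02 with quantile normalization. With each library left out, Timm44 ranged from -0.09 to 0.12, Timm21 from -0.19 to 0.23, Aifm1 from -0.29 to 0.02 and Mtx3 from -0.57 to 0.04. In ATAC, with tags per kb of peak, Timm10b was -0.27, Timm13 -0.10, Timm17a -0.10, Timm22 -0.12, Timm23 -0.00, Tomm5 0.07 and Tomm70a 0.30. With no further scaling Timm23 was -0.00, Timm8a1 -0.04, Timm21 0.20 and Tomm70a 0.09. With library medians subtracted Timm21 was 0.51 and Tomm70a 0.39. With each library left out, Timm10b ranged from -0.03 to 0.16, Timm21 from -0.12 to 0.01 and Tomm5 from -0.40 to 0.03.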
